A study of Saccharomyces cerevisiae with 5 samples.

Results

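GTP is made from IMP in a short chain of enzymes, and the genes described here are the 5 rows of the table that stand for its first steps: IMD1 (YAR073W), IMD2 (YHR216W), IMD3 (YLR432W) and IMD4 (YML056C), the IMP dehydrogenase family, and GUA1 (YMR217W), the GMP synthase. They were taken by their systematic names from 6567 features measured in budding yeast, Saccharomyces cerevisiae, and all 5 were found. The family was chosen by its IMD2 values, the FPKM of IMD2 being already known to differ widely between these mutants, so the members are described and not tested. Of the 5 genes, 4 had a mean of at least 5 FPKM over the strains and IMD1 did not. FPKM are fragments per kilobase scaled for library size, in a way that the sources used here do not give.

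IMP dehydrogenase oxidises IMP to XMP, the step that commits a purine nucleotide to the guanine branch, and GMP synthase turns XMP into GMP. GMP is then phosphorylated to GDP and GTP. In this yeast IMD2 is the copy known to be switched by the GTP supply. When GTP is ample, RNA polymerase II starts upstream at G residues and makes short RNAs that are cut off by the Nrd1, Nab3 and Sen1 factors, and when GTP is scarce it starts further downstream at an A and makes the full mRNA. IMD3 and IMD4 are known as the copies expressed at a steady level, and IMD1 is known as a pseudogene.

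The strains were the parent BY4741, labelled WT, with the genotype MATa his31 leu20 met150 ura30, and 4 strains labelled as derivatives of BY4741 that each lacked a subunit gene of the INO80 chromatin remodelling complex: ino80::LEU2 (ino80d), arp8::LEU2 (arp8d), arp5::LEU2 (arp5d) and ies6::LEU2 (ies6d). INO80 is the motor ATPase, ARP5 and ARP8 encode actin-related subunits and IES6 a small subunit, and every mutant carries LEU2 as the marker of the deletion, with LEU2 RNA at 81.3 to 125 FPKM and at 0.0619 in WT. Asynchronous cultures in rich medium at 30 degrees C were harvested in mid-log phase, and poly(A) RNA was sequenced. A single FPKM stands for both biological replicates of a strain, so no value below has a replicate error, no difference was tested against replicate spread, and strains next to each other in an order of levels cannot be told apart from noise. The depth of the libraries is unknown.

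Each deleted gene was between 0.0257 and 0.211 FPKM in its own strain and at 25.7 FPKM or more in the others. The mating type a gene STE2 was at 806 FPKM or more in all 5 strains. MFA1, another a gene, was at 203133 FPKM in WT, against 194434 to 635234 over the mutants, and MFA2 at 101730, against 62791 to 128533. The mating type alpha genes examined were higher in every mutant than in WT. MF(ALPHA)1 was at 1.69 FPKM in WT, against 19.8 to 41.5 over the mutants. MF(ALPHA)2 was at 32.8 FPKM, against 40.03 to 75.7, and STE3 at 4.89, against 10.7 to 13.9. The cause was not tested. Some strains differed beyond the deleted gene. LYS2, a lysine synthesis gene, was near 0 in ino80d (0.0138 FPKM) and arp5d (0.0390), while WT had 36.9, arp8d 32.3 and ies6d 25.01. MET17, the gene also called MET15, was at 807 FPKM in ino80d and 564 in arp8d and below 1 FPKM elsewhere, with 0.571 in ies6d as the highest of those. MET17 RNA in ino80d and arp8d goes against the met150 allele of the stated parent, and the genotype names no LYS2 allele, so a ratio to WT can also hold differences between strains beyond the deleted gene. The median log2 ratio to WT of the 84 kept genes of chromosome I was 0.69 in ino80d, against 0.08 to 0.13 in the other mutants. For the 156 kept genes of chromosome III it was 0.36 in ies6d, against 0.05 to 0.16 in the other mutants. The median log2 ratio over all 6192 kept features was between -0.02 and -0.01 in each mutant.

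The 4 IMD genes are close copies, which bears on every value below, because the sources used here do not say where reads that fit several copies were counted. Positions are on the R64 assembly, the same as build sacCer3. IMD2 spans chrVIII:554396-555967 on the plus strand as 1 exon of 1572 coding bases, and ends 6676 bases from the right end of its chromosome. IMD3 spans chrXII:1002557-1004128 on the plus strand, also as 1 exon. IMD4 spans chrXIII:162194-164176 on the minus strand in 2 exons, with an intron of 408 bases that holds the small nucleolar RNA gene SNR54. GUA1 spans chrXIII:701790-703367 on the plus strand. YAR073W is not in the annotation used here, and the stretch that aligned with the whole of IMD2 was chrI:227742-229317, 901 bases from the right end of chromosome I. That stretch was 96.3% identical to IMD2. IMD2 was 88.9% identical to IMD3 and 79.1% to IMD4 in coding sequence, and 92.5% and 84.2% in the encoded protein, while IMD3 and IMD4 were 82.6% and 88.9% identical in the same order.

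A stretch of 30 coding bases shows how alike the copies are around a codon known to matter for the inhibitor mycophenolic acid. Capitals mark that codon. TCT is a serine codon and GCT and GCA are alanine codons, and the serine of the Imd2 protein is known to give resistance to the drug.
IMD1: ttatggggtgctTCTattgggactatggac
IMD2: ttatgtggtgctTCTattgggactatggac
IMD3: ttatgtggtgctGCTatcggtactatcgat
IMD4: ctatgtggtgctGCAattggtactatcgaa
These lie at chrI:228486-228515, chrVIII:555140-555169 and chrXII:1003301-1003330 on the plus strand and at chrXIII:162992-163021 on the minus strand. The next pair shows where the reading frame of IMD1 breaks, with the extra base of IMD1 in capitals.
IMD1: gatggtggtgttcAaaaacattggtca
IMD2: gatggtggtgttcaaaacattggtca
They lie at chrI:228843-228869 and chrVIII:555497-555522. The IMD1 stretch held 4 more bases than IMD2 in all, and its reading frame ended after 403 codons, against 523 in IMD2, 523 in IMD3 and 524 in IMD4. The table carries a separate row for the part beyond the break, YAR075W, at 1.24 FPKM in WT, against 0.233 to 1.17 over the mutants.

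How far each gene can be told from its copies was measured by cutting the coding sequence into overlapping windows and looking for each in the whole genome on both strands. Of windows of 50 bases, 33.7% of those of IMD2 occurred elsewhere too, as did 32.1% of IMD1, 16.6% of IMD3, 7.01% of IMD4 and none of GUA1. At 100 bases the shares were 9.30% for IMD2, 9.28% for IMD1, 2.72% for IMD3 and 2.71% for IMD4. At 36 bases they were 44.6% for IMD2, 44.9% for IMD1, 23.4% for IMD3 and 9.68% for IMD4. The read length is not given in the sources used here. Only exact matches were counted, so reads placed with mismatches could be shared more often. Most windows of each gene were thus its own at these lengths when matched exactly. A sum over the family depends less on how shared reads were split.

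IMD2 differed more between strains than any other gene of the group. It was at 148 FPKM in WT, and ino80d had 7.77, arp8d 39.9, arp5d 2.94 and ies6d 19.02. The order from high to low was WT, arp8d, ies6d, ino80d and arp5d, with the highest value 50.2 times the lowest. The mutants held 5.26% (ino80d), 27.04% (arp8d), 1.99% (arp5d) and 12.9% (ies6d) of the WT level. On the scale used for all features, the log2 ratio of FPKM + 1 to WT, this was -4.08, -1.86, -5.24 and -2.89, a scale that understates the change of low values. In a bulk culture, fewer cells with the RNA and less RNA per cell cannot be told apart. Among 5409 annotated open reading frames (ORFs) of at least 300 bp, called long ORFs here, IMD2 had the second lowest ratio in arp5d after ARP5 itself, and stood at rank 6 in ino80d, 7 in ies6d and 21 in arp8d. These ranks rest on the values for which IMD2 was chosen.

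IMD1 was near 0 throughout, at 0.701 FPKM in WT, and ino80d had 0.573, arp8d 0.486, arp5d 0.519 and ies6d 0.121. With the copy next to it in sequence at 148 FPKM in WT and 2.94 in arp5d, the level of IMD2 was 211 times that of IMD1 in WT and 5.67 times in arp5d. No fold change is given for IMD1, since it was under the low-value limit in all 5 strains. The 300 bases before the start codon were 90.7% identical between the copies.

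IMD3 was at 507 FPKM in WT, and ino80d had 409.7, arp8d 409.9, arp5d 294 and ies6d 467. All mutants were below WT, and arp5d was the lowest, at 57.8% of WT. The log2 ratios were -0.31 (ino80d), -0.31 (arp8d), -0.79 (arp5d) and -0.12 (ies6d). With the FPKM of each strain scaled to the same sum they were -0.15, -0.02, -0.72 and -0.25, which puts arp8d close to WT. That scaling also moved the median of all kept features in arp8d by 0.24, and relative to this shift IMD3 was at -0.27 there.

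IMD4, the only one of the family with an intron, was at 697 FPKM in WT, and ino80d had 409, arp8d 491, arp5d 319 and ies6d 401. Again all mutants were below WT with arp5d lowest, at 45.8% of WT, and with log2 ratios of -0.77, -0.50, -1.12 and -0.79 in ino80d, arp8d, arp5d and ies6d. With equal FPKM sums the ratio in arp8d was -0.22, or -0.46 relative to the shift of all kept features under that scaling. SNR54 itself was not analysed here.

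GUA1, the GMP synthase, was at 948 FPKM in WT, and ino80d had 647, arp8d 726, arp5d 759 and ies6d 715. It had the highest level per length of the 5 genes in every strain, and its mutant values spanned 1.17-fold. Unlike IMD2, IMD3 and IMD4 it was lowest in ino80d, at 68.2% of WT, and its value in arp5d was the highest of the mutants. The log2 ratios were -0.55, -0.38, -0.32 and -0.41 in ino80d, arp8d, arp5d and ies6d. With equal FPKM sums the ratio was -0.10 in arp8d, or -0.34 relative to the shift of all kept features under that scaling.

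**Figure D1:**
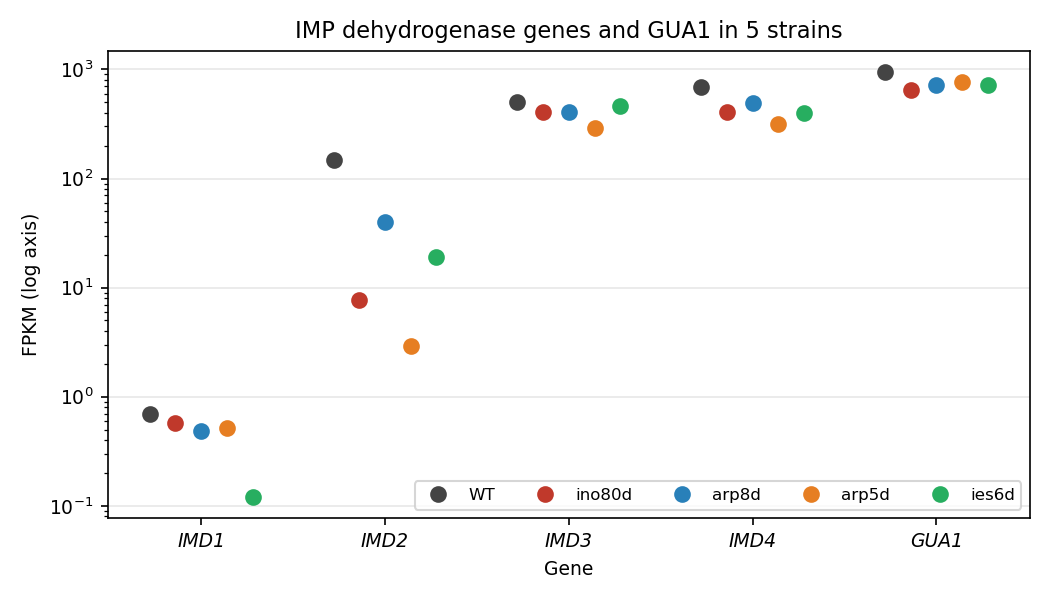
FPKM of IMD1, IMD2, IMD3, IMD4 and GUA1 (log axis) with 1 point for each of the 5 strains, each point being the single deposited value. IMD2 runs from 148 FPKM in WT to 2.94 in arp5d, while GUA1 stays between 647 and 948 FPKM.

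Read against a threshold of 2-fold, IMD2 was lower than WT in all 4 mutants and IMD4 in arp5d, and no member was 2-fold higher in any, where 6.82% (ino80d), 5.1% (arp8d), 6.44% (arp5d) and 7.28% (ies6d) of all kept features were. That made 1 of the 4 kept genes lower in ino80d, where 4.39% of all kept features were 2-fold lower, 1 of 4 in arp8d (2.45% of features), 2 of 4 in arp5d (3.6%) and 1 of 4 in ies6d (3.55%). Since the genes were chosen with IMD2 in view, nothing is read from these counts. The 4 comparisons share the same WT value, so an unusual WT value would shift a gene in all of them alike.

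Summed over IMD1 to IMD4, IMP dehydrogenase RNA came to 1353 FPKM in WT, and ino80d had 827, arp8d 941, arp5d 616 and ies6d 887. The sum was thus 61.2%, 69.6%, 45.6% and 65.6% of WT in the 4 mutants, with arp5d the lowest. Its log2 ratio to WT was -0.71 (ino80d), -0.52 (arp8d), -1.13 (arp5d) and -0.61 (ies6d), and in arp8d it was -0.24 once the FPKM of each strain were scaled to the same sum. That scaling moved the median of all kept features in arp8d by 0.24. IMD2 made up 10.9% of the sum in WT, and ino80d had 0.939%, arp8d 4.24%, arp5d 0.477% and ies6d 2.14%. IMD3 and IMD4 together held nearly all of the rest, at 1204 FPKM in WT, and ino80d had 819, arp8d 901, arp5d 613 and ies6d 868. Of the missing sum in each mutant, IMD2 accounted for 26.6% (ino80d), 26.2% (arp8d), 19.7% (arp5d) and 27.6% (ies6d). The larger part of the difference in FPKM therefore lay in IMD3 and IMD4, although their fold changes were smaller.

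The balance between IMD3 and IMD4 differed between strains. IMD3 was 0.728 times IMD4 in WT, 0.835 times in arp8d, 0.919 times in arp5d, 1.001 times in ino80d and 1.16 times in ies6d. IMD4 was the higher of these copies in WT, arp8d and arp5d, and IMD3 in ies6d. The level of GUA1 was 0.701 times the IMD sum in WT, between 0.771 and 0.806 times in arp8d, ino80d and ies6d, and 1.23 times in arp5d.

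**Figure D2:**
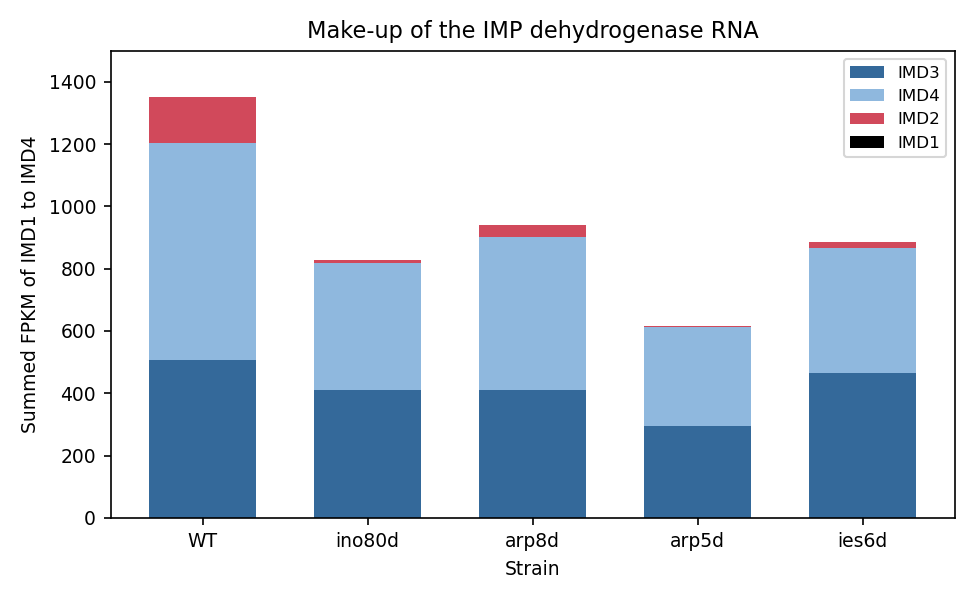
Stacked FPKM of IMD3, IMD4, IMD2 and IMD1 in each strain on a linear axis from 0, with 1 deposited value per gene and strain. The total is 1353 FPKM in WT and 616 in arp5d, and the IMD2 layer is 10.9% and 0.477% of these totals, while IMD1 is too low to be seen.

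Set against each other without WT, the mutants also differed at IMD2. It was at least 2-fold apart in all 6 pairs of mutants on the log2(FPKM + 1) scale, from 2.04-fold between arp8d and ies6d to 10.4-fold between arp8d and arp5d. With a pseudocount of 5 FPKM, 3 of these pairs were less than 2-fold apart: ino80d with arp5d, ino80d with ies6d, and arp8d with ies6d. Of all kept features, 2.12% were 2-fold apart between ino80d and arp8d, 1.07% between ino80d and arp5d, 1.71% between ino80d and ies6d, 1.52% between arp8d and arp5d, 1.91% between arp8d and ies6d and 1.15% between arp5d and ies6d. IMD2 was chosen for such differences, so nothing is read from setting it beside these shares. IMD3, IMD4 and GUA1 were not 2-fold apart in any pair, with largest folds of 1.59, 1.54 and 1.17. Arp5 and Ies6 are known to sit together in a subcomplex of INO80, and IMD2 was 5.08-fold lower in arp5d than in ies6d.

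The range over the 4 mutants, highest minus lowest on the log2 scale, was 3.38 for IMD2, 0.67 for IMD3, 0.62 for IMD4 and 0.23 for GUA1, with a median of 0.27 over long ORFs. IMD2 was chosen for its wide differences between the mutants, so its place in this order only describes that choice. Only 8 of the 5409 long ORFs had a larger range than IMD2. They were the 4 deleted genes, MET17, LYS2, YGL149W, which overlaps INO80, and CHA1, the serine and threonine deaminase. YGL149W and CHA1 are named here after their values were seen. IMD3 was exceeded by 7.86% of long ORFs, IMD4 by 9.39% and GUA1 by 61.4%.

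**Figure D3:**
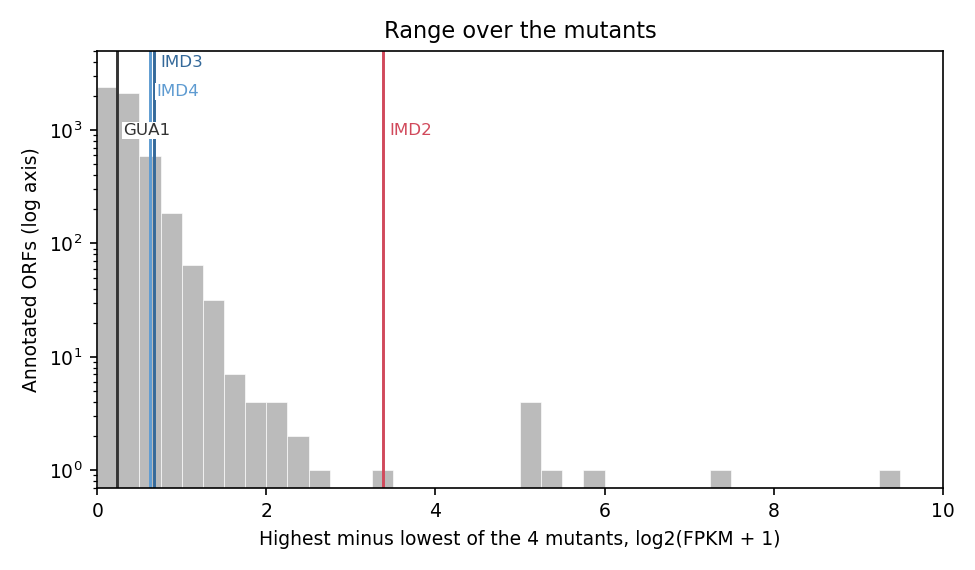
Histogram over 5409 long ORFs of the highest minus the lowest mutant value of log2(FPKM + 1), with the number of ORFs on a log axis and vertical lines at the members. IMD2, which was chosen for its differences between the mutants, stands at 3.38, with 8 ORFs to its right. GUA1 at 0.23 stands near the median of 0.27.

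The strains with the lowest IMD2 values, arp5d and ino80d, were also those without LYS2 RNA, and their part in the result was not tested. Between the strains that had LYS2 RNA, IMD2 was highest in WT (148 FPKM), then arp8d (39.9) and ies6d (19.02). MET17 RNA followed another division, being present in ino80d and arp8d, which held 7.77 and 39.9 FPKM of IMD2.

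Part of the stretch before IMD2 is shown because its start site is known to be chosen in this region. The part shown leaves out the bases nearest the start codon, so a start site among them is not seen. It covers bases -250 to -110 from the start codon, chrVIII:554146-554286 on the plus strand, and capitals mark TATA, a core of the element bound by TBP, and TCTTG, a core of the RNA site of Nab3.
IMD2 upstream: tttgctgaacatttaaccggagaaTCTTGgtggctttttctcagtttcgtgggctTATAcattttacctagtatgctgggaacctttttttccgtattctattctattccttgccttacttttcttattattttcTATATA
TATA stood at -195, and again at -115 and -113, where the matches overlap. TCTTG stood at -226 on the coding strand, and 21.1% of 6001 protein-coding genes held it on that strand in the same window, as against 65.9% for TATA, which reads alike on both strands. All 5 members held 1 TCTTG on the coding strand in this window. GTAA, a core of the Nrd1 site, was not found before IMD2 on the coding strand, and 49.2% of genes held it on that strand. On the other strand it was found 2 times before IMD2, and 76.8% of genes held it on either strand. TGACTC, the core of sites of Bas1 and Gcn4, was searched on both strands from -250 to -1 and was not found before any member, and 6.25% of genes held it. These are matches of letters and not sites of binding.

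IMD2 lies in the last genes of its chromosome arm, so the genes around it were examined. The nearest on its left, PHO12, an acid phosphatase of phosphate starvation, was at 62.7 FPKM in WT, and ino80d had 1.12, arp8d 5.34, arp5d 2.23 and ies6d 3.04. It was lowest in ino80d, whereas IMD2 was lowest in arp5d, and both were highest in arp8d among the mutants. PHO12 has a near-identical copy, PHO11, next to IMD1 on chromosome I, which was at 15.20 FPKM in WT, against 1.43 to 3.62 over the mutants. The second gene on the left, YHR214C-E, was at 1.65 FPKM or less in every strain, and on the right YHR219W was at 0.171 FPKM or less, while YHR218W was not analysed here. Of the 8 other kept genes from 40 kb left of IMD2 to the chromosome end, 2 were 2-fold lower than WT in each mutant, PHO12 and BAT1, the mitochondrial branched-chain aminotransferase, where 4.39%, 2.45%, 3.6% and 3.55% of all kept features were. In the same stretch 3 genes were 2-fold higher for arp8d and 2 for each other mutant, against 6.82% (ino80d), 5.1% (arp8d), 6.44% (arp5d) and 7.28% (ies6d) of all kept features. YHR210C, at 1.23 to 1.87 over the mutants, and YHR213W-B, at 1.12 to 1.83, were higher in all 4, and they are named after their values were seen. The medians of the 8 genes were 0.73 (ino80d), 0.53 (arp8d), 0.48 (arp5d) and 0.27 (ies6d), above those of the 264 kept genes of chromosome VIII, which were between -0.05 and -0.01. The lower levels were thus not shared along the whole end.

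**Figure D4:**
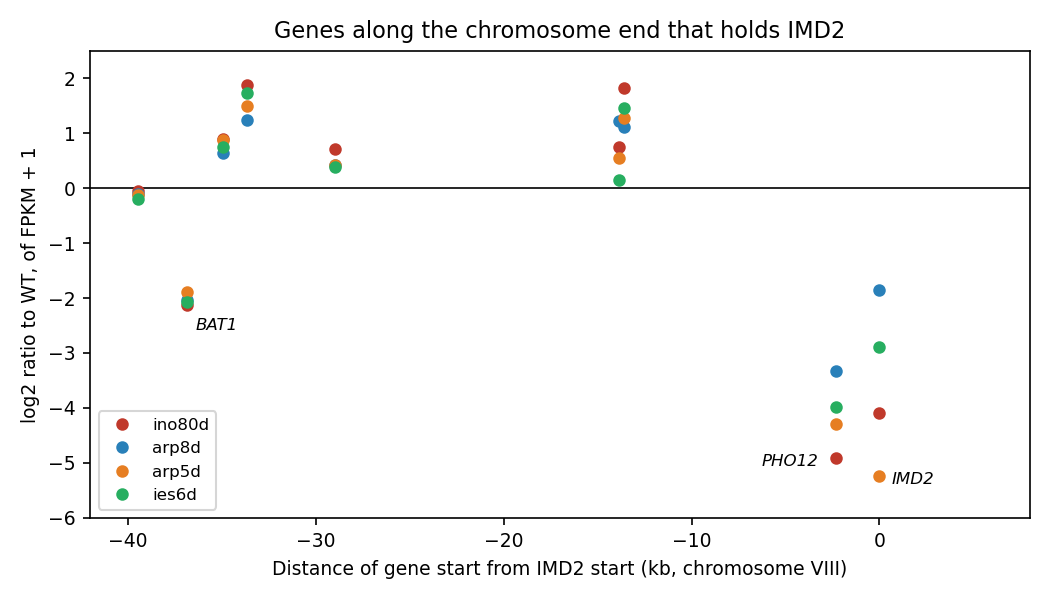
Log2 ratio to WT of FPKM + 1 for kept genes at the right end of chromosome VIII, placed by the distance of their start from that of IMD2 in kb, with 1 point per mutant. PHO12 and IMD2 lie between -5.24 and -1.86, BAT1 between -2.13 and -1.90, and SET5 is the lowest of the others, at -0.19 in ies6d.

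Next to the other annotated members, no gene reached 2-fold on either nearest side. Beside IMD3, ATG23, an autophagy gene, had log2 ratios between -0.20 and 0.06, and CNA1, a calcineurin subunit gene, between 0.01 and 0.42. SEN1, the helicase that ends short RNAs, and TSR2 were the next ones out, between -0.04 and 0.47. Beside IMD4, CMP2, the paralogue of CNA1, had ratios between 0.13 and 0.31 and SPC2, a signal peptidase subunit gene, between -0.11 and 0.10. Further out, SML1, the inhibitor of ribonucleotide reductase, was between -0.61 and -0.33, while CYB2, the lactate dehydrogenase of mitochondria, had 12.5 FPKM in WT and 32.1 to 37.2 over the mutants. Beside GUA1, SKY1 was between -0.40 and -0.11 and TRS130 between 0.15 and 0.35. GAS3 and ESC1, the next ones out, were between -0.99 and -0.74 and between 0.36 and 0.56.

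The kinases that follow GMP differed in direction. GUK1, the guanylate kinase that makes GDP, was at 1042 FPKM in WT, and ino80d had 536, arp8d 745, arp5d 589.6 and ies6d 655. Its log2 ratio of -0.96, -0.48, -0.82 and -0.67 was past 1.5-fold in ino80d, arp5d and ies6d. YNK1, the nucleoside diphosphate kinase that makes GTP from GDP, was at 535 FPKM in WT, and ino80d had 678, arp8d 686, arp5d 704 and ies6d 903. All mutants were above WT, and ies6d alone was past 1.5-fold, with a log2 ratio of 0.75. YNK1 lies on chromosome XI, whose 308 kept genes had a median of 0.11 in ies6d and between -0.02 and 0.00 in the other mutants.

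For the whole guanine branch, IMD1 to IMD4, GUA1, GUK1 and YNK1, 6 of 7 genes were kept. Of these, 3 were at least 1.5-fold lower for ino80d, 1 for arp8d, 4 for arp5d and 3 for ies6d, and 1 was 1.5-fold higher, in ies6d. The medians were -0.66, -0.43, -0.80 and -0.54. Among all kept features, 13.2% were 1.5-fold lower for ino80d, 8.33% for arp8d, 10.9% for arp5d and 10.4% for ies6d, whereas 15.1%, 11.0%, 13.3% and 14.4% were 1.5-fold higher. The branch list holds the members, so its counts partly repeat them.

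The genes of the sister branch to AMP were lower in every mutant. ADE12, the adenylosuccinate synthetase that opens this branch, was at 523 FPKM in WT, and ino80d had 242, arp8d 276, arp5d 209 and ies6d 246, and like IMD2, IMD3 and IMD4 it was lowest in arp5d. ADK1, the adenylate kinase, was at 2184 FPKM in WT, against 1096 to 1202 over the mutants. ADE13, the lyase that serves both this branch and IMP synthesis, had log2 ratios between -2.45 and -1.99. All 3 genes were at least 1.5-fold lower in all 4 mutants, as were 4.78% of kept features, except that ADK1 in arp8d was at -0.57 with equal FPKM sums.

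Upstream, 8 of 9 genes of IMP synthesis were at least 1.5-fold lower in all 4 mutants, as were 4.78% of kept features. The list medians were -1.18 (ino80d), -1.49 (arp8d), -1.09 (arp5d) and -1.37 (ies6d). A list that overlaps this one was low in an earlier look at the same data, so this is not independent of it. ADE4, the amidotransferase of the first step, was at 189 FPKM in WT, and ino80d had 91.9, arp8d 84.1, arp5d 103 and ies6d 80.4. ADE57, a gene for 2 activities of the pathway, was at 649 FPKM in WT, against 231 to 289 over the mutants. ADE8, ADE6 and ADE2, which act in between, had log2 ratios between -1.67 and -0.72. ADE17, for the last steps to IMP, had the lowest mean ratio of the list, with values between -2.55 and -2.24, while its paralogue ADE16 was at 256 FPKM in WT, against 204 to 218 over the mutants. ADE1 was at 1181 FPKM in WT, and ino80d had 628, arp8d 407, arp5d 553 and ies6d 455, and it lies on chromosome I, whose median was 0.69 in ino80d. Of these 9 genes, 6 had their highest mutant value in arp5d and none its lowest. Some margins were small, as for ADE13, at 336.5 FPKM in arp5d and 335.6 in ies6d. The share over all kept features was not computed, so nothing is read from this count.

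Of 10 genes of salvage and interconversion, 4 were at least 1.5-fold lower for ino80d, 2 for arp8d, 1 for arp5d and 1 for ies6d, and 1 was higher in each. Against the 13.2%, 8.33%, 10.9% and 10.4% of all kept features that were lower, the counts in arp5d and ies6d were at the share of all features, and the 1 of 10 that was higher lay below it in every mutant (15.1%, 11.0%, 13.3% and 14.4%). AAH1, the adenine deaminase, was the lower one in all 4, at 393 FPKM in WT, and ino80d had 142, arp8d 258, arp5d 159 and ies6d 179. Its log2 ratio in arp8d, -0.60, was just past 1.5-fold, and the call there was lost when strains were centred on their medians (-0.58) or scaled to the same FPKM sum (-0.31). GUD1, the guanine deaminase, which removes guanine from the pool, was the higher one in all 4, at 8.78 FPKM in WT, and ino80d had 18.4, arp8d 15.01, arp5d 16.8 and ies6d 15.4. With a pseudocount of 5 FPKM it was no longer 1.5-fold higher in arp8d (0.54) and ies6d (0.57), nor in ies6d with equal FPKM sums (0.52). HPT1, the salvage enzyme for guanine and hypoxanthine, was at 1315 FPKM in WT, and ino80d had 709, arp8d 740.5, arp5d 960 and ies6d 1081, and so was past 1.5-fold in ino80d and arp8d. XPT1, the salvage enzyme for xanthine, had log2 ratios between -0.13 and 0.44.

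Among 4 transporter genes were FCY2, the purine and cytosine permease, and GGC1, the carrier that moves GTP and GDP across the inner mitochondrial membrane. Both were 1.5-fold lower in all 4 mutants, as were 4.78% of kept features, except that FCY2 in arp8d was at -0.50 with equal FPKM sums. GGC1 was at 191 FPKM in WT, and ino80d had 93.9, arp8d 79.7, arp5d 84.0 and ies6d 84.7. FCY2 was at 641 FPKM in WT, and ino80d had 249, arp8d 371, arp5d 252 and ies6d 229.8. The genes that draw on GTP for cofactors lay close to WT. RIB1, GTP cyclohydrolase of riboflavin synthesis, had log2 ratios between -0.13 and 0.08, and FOL2, that of folate synthesis, between 0.12 and 0.30. BAS1 and PHO2, the activators of the ADE genes, were between -0.08 and 0.21 and between -0.03 and 0.39.

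Counted once each, 35 kept genes of these 7 lists gave 20 (57.1%) at least 1.5-fold lower for ino80d, 15 (42.9%) for arp8d, 18 (51.4%) for arp5d and 17 (48.6%) for ies6d. The shares of all kept features that were lower were 13.2%, 8.33%, 10.9% and 10.4%. The pooled genes include IMD2, chosen for its values, and the IMP synthesis list, which overlaps one seen to be low earlier. These counts are thus not independent of what was known before. Higher were 1, 1, 1 and 2 of the list genes, against 15.1%, 11.0%, 13.3% and 14.4% of all kept features. Lower in all 4 were 14, and 1 was higher in all 4, where 4.78% and 7.98% of kept features were. With equal FPKM sums 11 were lower in all 4, as AAH1, FCY2 and ADK1 lost the call in arp8d, and none was higher in all 4. In arp8d that scaling moved the median of all kept features by 0.24. At a 2-fold threshold 11, 9, 11 and 12 were lower in ino80d, arp8d, arp5d and ies6d, 6 were lower in all 4, and none was higher in any mutant.

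**Figure D5:**
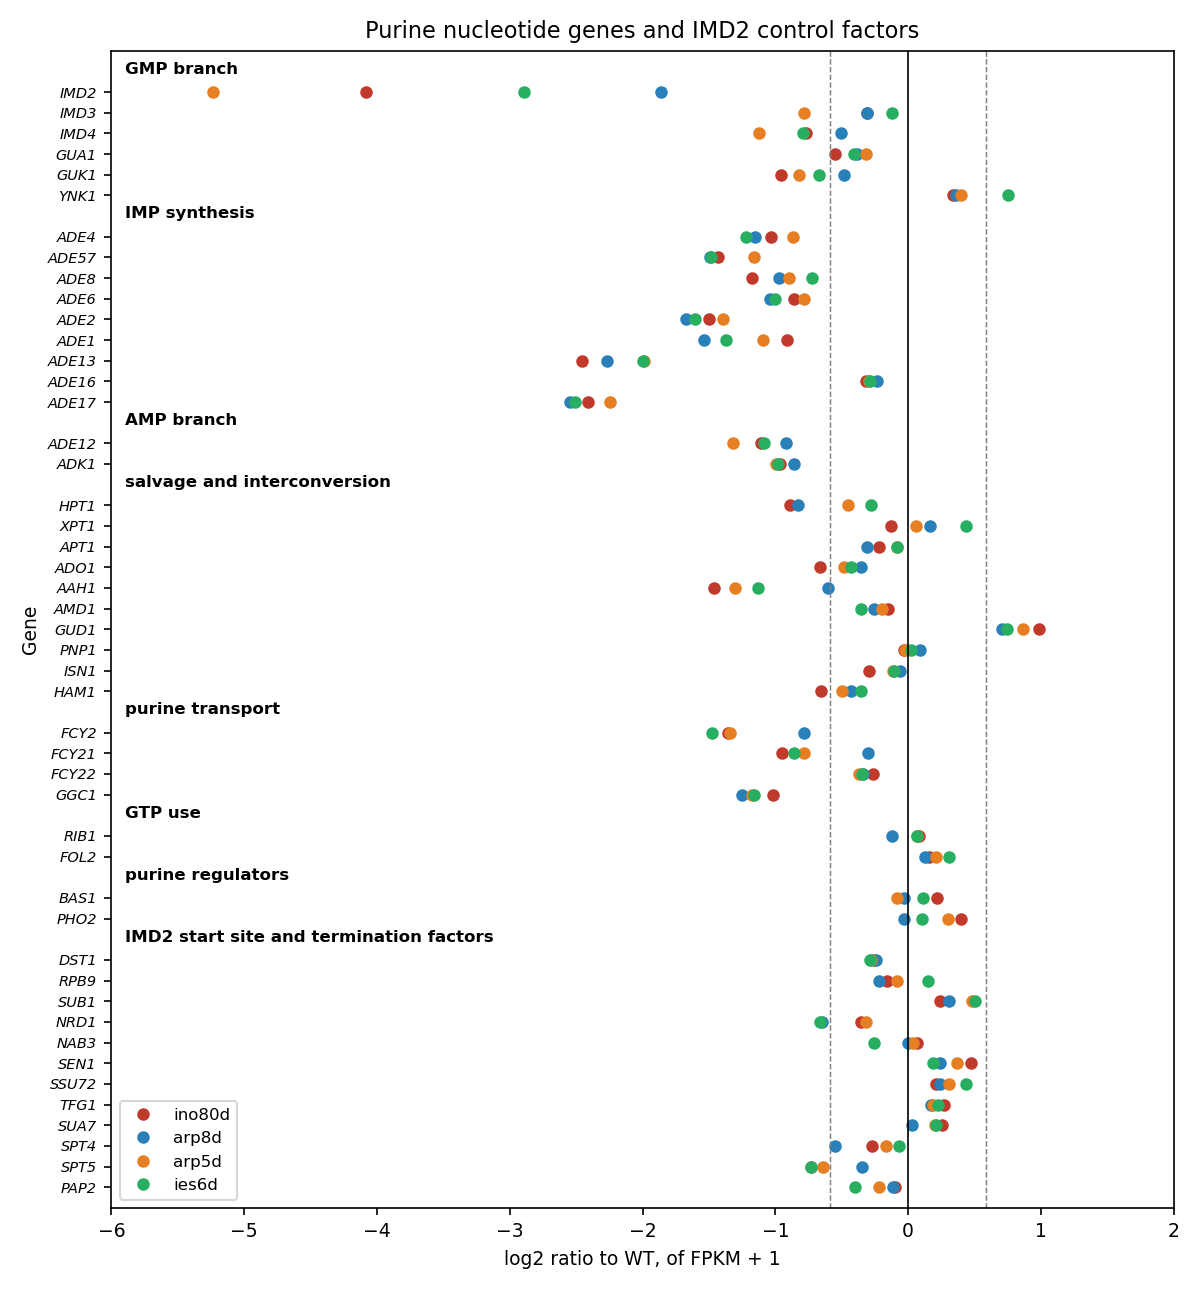
Log2 ratio to WT of FPKM + 1 for kept genes of the 7 purine nucleotide lists and of the IMD2 control factors, 1 point per mutant, with dashed lines at 1.5-fold and ADE13 drawn once. IMD2 spreads from -5.24 to -1.86, whereas the mutants lie close together for most ADE genes and around 0 for the control factors.

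The RNAs of proteins known to act at the IMD2 start region were examined as well. Of these 12, 1 was at least 1.5-fold lower in each of ino80d, arp8d and arp5d and 2 in ies6d, none was higher, and their medians were between -0.06 and 0.04. Of all kept features 13.2%, 8.33%, 10.9% and 10.4% were lower in the same 4 mutants, so nothing is read from these counts. SPT5, an elongation factor, had the largest mean change, at 94.6 FPKM in WT, and ino80d had 56.4, arp8d 74.1, arp5d 60.3 and ies6d 56.7. NRD1 was at 70.2 FPKM in WT, and ino80d had 54.7, arp8d 44.4, arp5d 56.2 and ies6d 44.0, and so was 1.5-fold lower in arp8d and ies6d. NAB3 had log2 ratios between -0.26 and 0.06, SEN1 between 0.19 and 0.47, and DST1, the elongation factor TFIIS, between -0.28 and -0.24. RNA levels say nothing of the activity of these proteins.

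The long ORFs whose 4 log2 ratios to WT came closest to those of IMD2, by root mean square difference, were TIR1 (1.07), PHO12 (1.11), PHO84 (1.13), SPL2 (1.37) and LEU1 (1.49). TIR1, a cell wall mannoprotein gene, was at 239.5 FPKM in WT, and ino80d had 9.78, arp8d 30.5, arp5d 12.2 and ies6d 10.8, thus highest in arp8d among the mutants, as was IMD2, but not lowest in arp5d. SPL2 had log2 ratios between -3.85 and -3.60 and LEU1 between -2.85 and -2.70, so these genes were about equally low in all mutants. By Pearson correlation of log2(FPKM + 1) over the 5 strains, the first were YMR122C (0.997), YLR108C (0.995), MSH6 (0.995), YCR087C-A (0.993) and PEA2 (0.993). These share the order of strains at smaller changes. YCR087C-A, the largest of them, was at 414 FPKM in WT, and ino80d had 148, arp8d 284, arp5d 118 and ies6d 189. MSH6, a mismatch repair gene, was between 19.6 and 24.6 FPKM. Among the members IMD4 had a correlation of 0.968 with IMD2, IMD3 of 0.831 and GUA1 of 0.691. The 5 points share 1 WT value and 5 libraries, and with so few points many genes reach high values. None of the first 5 by one measure was among the first 5 by the other.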

How the data were processed

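Poly(A) RNA libraries (Illumina TruSeq RNA v2, per the labels' protocols) of 5 strains were deposited by the authors as FPKM values, 1 column per strain for 2 biological replicates. TopHat2, Cuffdiff and build sacCer3 are named per the submitters' processing notes. The kit does not mark strand, so antisense reads cannot be told apart. Versions, annotation, scaling and the treatment of reads shared by copies are not given in the sources used here. Counts are not given, and low FPKM values times gene length showed no common step (the lowest in WT were 0.114, 2.6 and 37.9), so depth stayed unknown and no counting interval was computed.

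All 5 columns were used. Of 6567 features, 5888 matched a locus tag of R64. Log2 ratios used a pseudocount of 1 FPKM, 6192 features had a mean of at least 5 FPKM, and thresholds of size were 2-fold for members and 1.5-fold for lists. Nothing was tested, because each strain has 1 value. Members and lists were chosen with earlier results of these data known. Sequences were read from the RefSeq R64 genome and aligned with Biopython 1.88 under Python 3.11.15. The ratio and calling steps were tested on simulated data.

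Named were the 5 members, 2 annotated neighbours on each side, the 5 long ORFs most like IMD2 by each of 2 measures, list genes 1.5-fold from WT in all 4 mutants or with the largest mean change in their list, strain markers and the deleted genes. Other list genes, BAT1, SET5, CHA1, YGL149W and those marked so in the text were named after their values were seen. Other settings tried were a pseudocount of 0.1 or 5 FPKM, a filter of 20 FPKM or none, centring or scaling of each strain, another fold threshold, IMD1 added to IMD2, and another measure of likeness. Restriction to long ORFs, leaving out ino80d and arp5d, and equal FPKM sums for the purine lists were added after seeing the data.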

Additional observations from a re-analysis of the deposited data

How the results depend on the processing

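No paired analysis was possible because each strain has 1 value, and no replicate could be left out. In every alternative run, IMD2 kept its direction and its side of 2-fold against WT in all 4 mutants, with log2 ratios from -5.60 to -4.26 in arp5d, -4.23 to -3.58 in ino80d, -2.95 to -2.67 in ies6d and -1.88 to -1.54 in arp8d. Scaling each strain to the same FPKM sum moved the median of all kept features by 0.13 (ino80d), 0.24 (arp8d), 0.03 (arp5d) and -0.15 (ies6d), and put IMD3 in arp8d at -0.02 and GUA1 at -0.10, or at -0.27 and -0.34 relative to that shift. The log2 ratio of the IMD sum was then -0.24 in arp8d. With a pseudocount of 5 FPKM, the log2 ratio of IMD2 fell below 2-fold for ino80d over arp5d (0.69), ino80d over ies6d (-0.91) and arp8d over ies6d (0.90), as the larger pseudocount shrinks ratios of low values. For the purine lists together, a 2-fold threshold gave 11 lower and 0 higher in ino80d, 9 and 0 in arp8d, 11 and 0 in arp5d and 12 and 0 in ies6d, while a pseudocount of 5 FPKM gave 0 higher in arp8d and 1 in ies6d. Without ino80d and arp5d, 14 purine genes were lower in every remaining mutant, the same count as in all 4. Leaving out mutants cannot lower such a count, so nothing is read from its staying the same. The count lower in all 4 was 6 at 2-fold, 13 with centred strains and 11 with equal FPKM sums. The 1 gene higher in all 4, GUD1, became 0 at 2-fold, with a pseudocount of 5 FPKM and with equal FPKM sums. Of the 5 genes most like IMD2, 0 were kept under Pearson correlation. Depth is unknown, so the precision of values under 1 FPKM, such as those of IMD1, cannot be given.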

Other observations

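Some values belong in no comparison above. YHR217C, a row with no entry in the annotation whose name places it beside IMD2, was at 0.206 FPKM in WT, listed at 0 in ino80d, and at 0.486 in arp8d, 0.630 in arp5d and 0.768 in ies6d. Among long ORFs with the next largest ranges over the mutants after IMD2, COS1, COS5 and COS7, members of a subtelomeric gene family, were lowest in ino80d. COS1 was at 23.9 FPKM in WT, and ino80d had 3.74, arp8d 26.2, arp5d 16.3 and ies6d 20.99, an order of strains unlike that of IMD2. HXT1, a low-affinity glucose transporter, was at 257 FPKM in WT, and ino80d had 133, arp8d 569, arp5d 161 and ies6d 229.9. For HXT1 arp8d was above WT, whereas for IMD2 it was below WT and the highest of the mutants only. These genes were picked after their values were seen.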
